A study of Homo sapiens with 28 samples.

Results

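The replication-dependent histone genes supply the H1, H2A, H2B, H3 and H4 proteins that package newly made DNA, and their mRNA levels were followed here in HEK293 cells, a human embryonic kidney line, depleted of factors of RNA processing, DNA repair and chromatin. Members were taken by their current symbols, as the genes named H1-1 to H1-6 and those whose symbol starts with H2AC, H2BC, H3C or H4C and a number, pseudogenes left out. A gene needed a probeset of the array annotated to its symbol alone, and 57 of 18417 genes measured in this way were members: 6 of class H1, 14 of H2A, 16 of H2B, 8 of H3 and 13 of H4. Each of the 57 had exactly 1 such probeset. The values of H4C14 and H4C15 were identical in all arrays, so both were counted as 1 measurement and the counts below run over 56. A further 13 of the 70 genes of the family were covered only by probesets shared with relatives. The coding sequences within a class are near-identical, so a probeset named for 1 gene may also read its relatives, and the values of single genes are uncertain to that extent.

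The cells were infected with lentiviruses expressing a short hairpin RNA from the U6 promoter, moved to puromycin at 2 µg per ml on the following day and grown under this selection for 6 days before harvest. Total RNA was copied with random primers and hybridised to Affymetrix Human Gene ST1.0 arrays, 14 in each of 2 array series. The first series held 3 hairpins each against CLP1 (a component of the complex that cleaves and polyadenylates pre-mRNAs), DDX5 and DDX17 (related RNA helicases) and HNRNPL (an RNA-binding splicing regulator), 1 hairpin against CPSF6 (a subunit of the cleavage factor CFIm), and the control hairpin named lacZ. The second series held 3 hairpins each against PABPC1 (the cytoplasmic poly(A)-binding protein), PARP1 (a poly(ADP-ribose) polymerase of the DNA damage response), PRKDC (the catalytic subunit of DNA-dependent protein kinase) and SUPT16H (part of FACT, which moves histones ahead of polymerases), and 2 lacZ arrays. All groups, lacZ included, share the virus, the selection and the culture time. The hairpins of a gene are different sequences, were picked by the study among several tried for their effect on the target, and stand here as the 3 replicates of a knockdown, so the p-values measure the spread between hairpins and arrays.

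The lacZ array of the first series and lacZ replicate 2 of the second differed by far less than other pairs and behaved as 1 array normalised in both series, which the labels do not state: their difference had an SD of 0.070 over probesets, against 0.284 between lacZ replicates 3 and 2 and 0.203 to 0.775 between hairpins of the same gene. They were counted as 1 sample, so every first-series value stands against 1 control array and every second-series value against 2, and all 4 knockdowns of a series share those controls. The targeted gene was below lacZ in all of its own arrays for all 9 targets, with a mean difference of -0.575 for CLP1 to -2.257 for PRKDC on the log2 scale. For CLP1 its own arrays read 5.73 to 5.84 and the other knockdowns of the series 5.87 to 6.16, all below lacZ at 6.36. For HNRNPL alone the target's own arrays, at 8.78 to 9.44, overlapped with the other knockdowns, at 9.01 to 9.98. The kidney line's markers NEFL, NEFM, PAX2 and VIM had probeset levels of 5.76 to 10.39, and those of blood cells, keratinocytes and fibroblasts 3.58 to 6.81. Among these, NEFL was lower in 5 knockdowns and CD14, with a low level, in 6. Levels are log2 of the deposited intensities, every difference is taken within a probeset, and an order of probesets by level describes their signal and not the amount of transcript.

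Replication-dependent histone mRNAs are made in S phase and, unlike other mRNAs of animal cells, mostly end in a conserved stem-loop in place of a poly(A) tail. The stem-loop binding protein SLBP, the U7 snRNP and a core of cleavage factors shared with polyadenylation make that end, and the same stem-loop later directs translation and the rapid loss of the mRNA when DNA synthesis stops. The genes lie in clusters at histone locus bodies, where NPAT and CASP8AP2 (FLASH) gather, and several H2A and H2B genes face away from each other on either side of a common promoter.

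Across the 8 knockdowns, single members of several classes were lower than in the lacZ control while the median of all members stayed within 0.36 of it on the log2 scale, and the 4 members H1-6, H2BC17, H3C12 and H4C9, from 4 classes, were lower in every knockdown. These 8 comparisons share a lacZ array on the reading above and are not independent of each other. With PABPC1 more members were called higher than lower. Histone mRNA follows the share of cells in S phase, and in bulk RNA fewer such cells and less mRNA per cell cannot be told apart. A member is called here at an adjusted p under 0.05 in limma with Benjamini-Hochberg adjustment over all 18417 genes. With the CLP1 hairpins 0 members were higher and 7 lower than in lacZ, where 0.337% of all genes were higher and 0.619% lower (0.956% in all). With DDX5 1 was higher and 5 lower, beside 0.174% and 0.668% of all genes (0.842%). With DDX17 0 were higher and 10 lower, beside 1.22% and 1.56% (2.77%), and with HNRNPL 0 were higher and 8 lower, beside 0.7% and 1.13% (1.84%). In these 4 knockdowns nearly all calls among the members were falls. With PABPC1 13 were higher and 6 lower, beside 1.73% and 4.02% of all genes (5.76%). With PARP1 1 was higher and 13 lower, beside 2.46% and 2.98% (5.44%), and with SUPT16H 1 was higher and 12 lower, beside 3.77% and 5.76% (9.53%). With PRKDC 6 were higher and 14 lower, beside 19.6% and 16.1% of all genes, and the share of members called, 35.7%, equalled the 35.7% of all genes. The median difference over the 56 members was -0.22 with CLP1, -0.11 with DDX5, -0.36 with DDX17, -0.32 with HNRNPL, 0.16 with PABPC1, -0.20 with PARP1, 0.08 with PRKDC and -0.11 with SUPT16H, beside medians of all genes between -0.01 and 0.10.

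**Figure D1:**
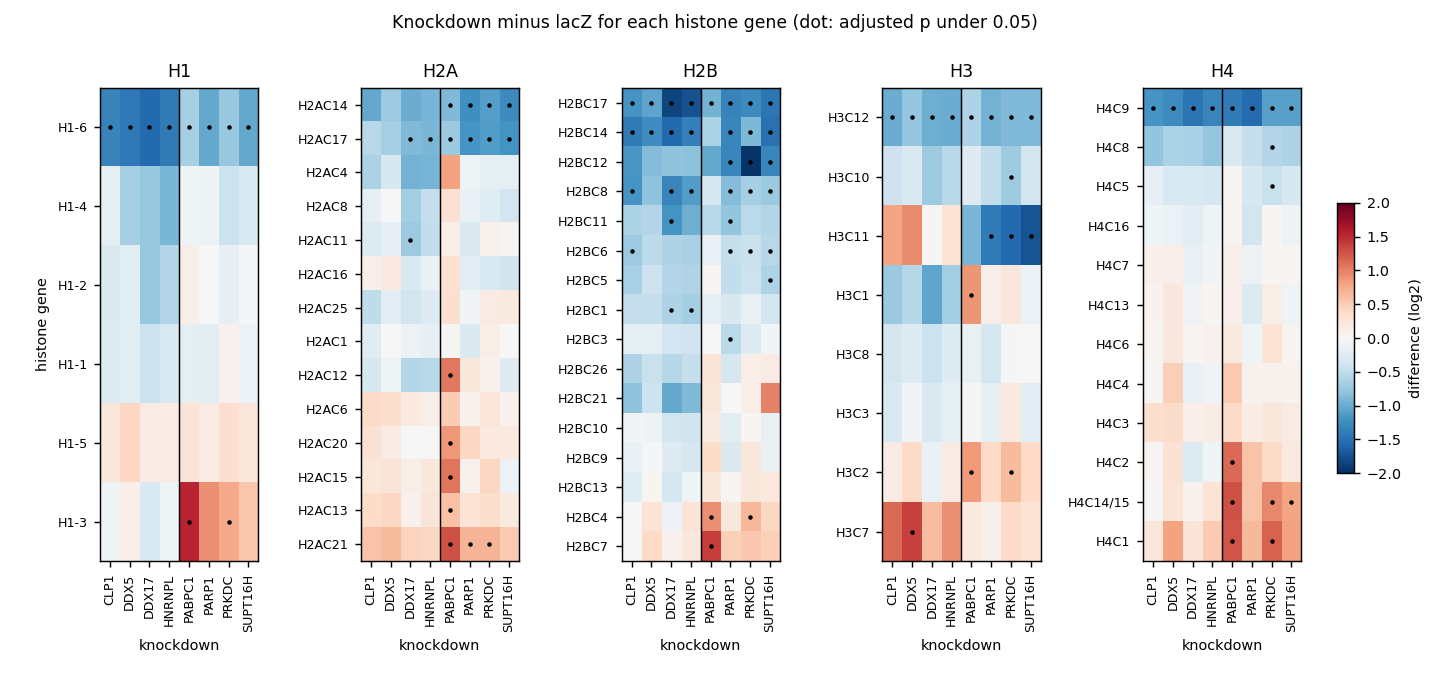
Difference in log2 level between each knockdown (columns, first series left and second series right of the black line) and the lacZ arrays of its series for the 56 histone measurements (rows), in 1 panel per class and ordered by the mean difference. Blue is lower and red higher than lacZ, and a dot marks an adjusted p under 0.05; H1-6, H2BC17, H3C12 and H4C9 carry a dot in all 8 columns, and the PABPC1 column holds most of the red cells with a dot.

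Over the 8 comparisons, 33 of the 56 measurements were called at least once: 14 only higher, 19 only lower and 0 in both directions. Called lower in all 8 were 4 of the 56 measurements, against 0.315% of all genes (58 of 18417). The lacZ array taken as shared stands behind all 8, so these are not 8 independent findings. Against the other knockdowns of their series the 4 were called in 0 comparisons, as given below. H2BC14 was called lower in 7, and H2AC17 and H2BC8 in 6. The sign was negative in all 8 for 17 members and positive in all 8 for 10. For the counts called at least once and the counts of signs no share of all genes was taken, so they do not set the members apart from other genes. The counts with 2 lacZ arrays rested in part on single arrays: without lacZ replicate 2, 3 members were called with PABPC1, 8 with PARP1, 7 with PRKDC and 8 with SUPT16H, and without lacZ replicate 3 the counts were 6 with PARP1, 12 with PRKDC and 6 with SUPT16H. They also fell to 8 without PARP1 hairpin 1 and 9 without PARP1 hairpin 2, to 13 without PRKDC hairpin 1, and to 5 with HNRNPL when hairpin 1 or 2 was left out. In the first series the control array could not be left out, and with its values tied to the second series through the lacZ array taken as shared, so that both lacZ arrays stood behind each knockdown, 13 members were called with CLP1, 10 with DDX5, 17 with DDX17 and 15 with HNRNPL.

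The called falls lay mostly among the members with low probeset levels. Of the 28 members with the lower mean levels, 7 were called lower with CLP1, 5 with DDX5, 9 with DDX17, 8 with HNRNPL, 6 with PABPC1, 11 with PARP1, 9 with PRKDC and 9 with SUPT16H. Of the 28 with the higher mean levels, 0, 0, 1, 0, 0, 2, 5 and 3 were called lower in the same order of knockdowns, and 11 were called higher with PABPC1. What the low level, where background signal takes a larger part of an intensity, adds to these falls was not tested.

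Class H1 holds the linker histones, which bind DNA where it enters and leaves the nucleosome. Among its 6 members H1-6, the testis form H1t, was lower in every knockdown and the other 5 were lower in 0, while H1-3 was higher with PABPC1 and PRKDC. H1-6 (chr6:26107412-26108135 of GRCh38) had levels of 4.79, 4.78 and 4.84 with the CLP1 hairpins, 4.52, 4.78 and 4.84 with DDX5, 4.58, 4.59 and 4.58 with DDX17 and 4.64, 4.66 and 4.86 with HNRNPL, against 6.14 in lacZ. Its second-series levels were 4.93, 4.87 and 5.07 with PABPC1, 4.61, 4.79 and 4.42 with PARP1, 4.81, 4.73 and 5.06 with PRKDC and 4.65, 4.55 and 4.57 with SUPT16H, against 5.82 and 5.43 in lacZ. All 24 hairpin arrays of the 8 knockdowns lay below every lacZ array of their series, with no overlap. The difference from lacZ was greatest with DDX17, at -1.56 (SE 0.17, adjusted p = 3.24e-06), and smallest with PABPC1, at -0.67 (SE 0.13, adjusted p = 0.00388). Without lacZ replicate 2 the H1-6 calls with PABPC1 and PRKDC were lost, with adjusted p of 0.237 and 0.0549.

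H1-4, the member of class H1 whose probeset read highest, gave levels of 12.19, 12.16 and 11.98 with CLP1, 12.14, 11.82 and 10.97 with DDX5, 12.08, 11.41 and 11.16 with DDX17 and 11.54, 11.42 and 11.21 with HNRNPL, against 12.30 in lacZ. All 12 lay below the single control array. Against the second-series controls H1-4 was at 11.90, 11.86 and 11.94 with PABPC1, 11.78, 11.99 and 11.89 with PARP1, 11.64, 11.47 and 11.57 with PRKDC and 11.62, 11.60 and 11.86 with SUPT16H, against 12.13 and 11.85 in lacZ. The PRKDC arrays lay below both controls, and each of the other 3 groups overlapped with them. The fit called H1-4 in 0 of the 8 comparisons, the greatest difference being -0.91 (SE 0.32, adjusted p = 0.165) with HNRNPL. H1-3 stood at 7.80, 7.57 and 8.10 with PABPC1, 7.34, 7.26 and 7.04 with PARP1, 6.48, 6.75 and 7.91 with PRKDC and 6.86, 6.54 and 7.08 with SUPT16H, against 6.17 and 6.41 in lacZ. All 12 hairpin arrays of the second series were above both controls. The rise of H1-3 was 1.53 (SE 0.29, adjusted p = 0.0023) with PABPC1 and 0.75 (SE 0.29, adjusted p = 0.0447) with PRKDC, of whose hairpins the third read far above the other 2. Without lacZ replicate 2 the adjusted p was 0.0864 with PABPC1 and up to 0.292 with PRKDC over the alternatives run.

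**Figure D2:**
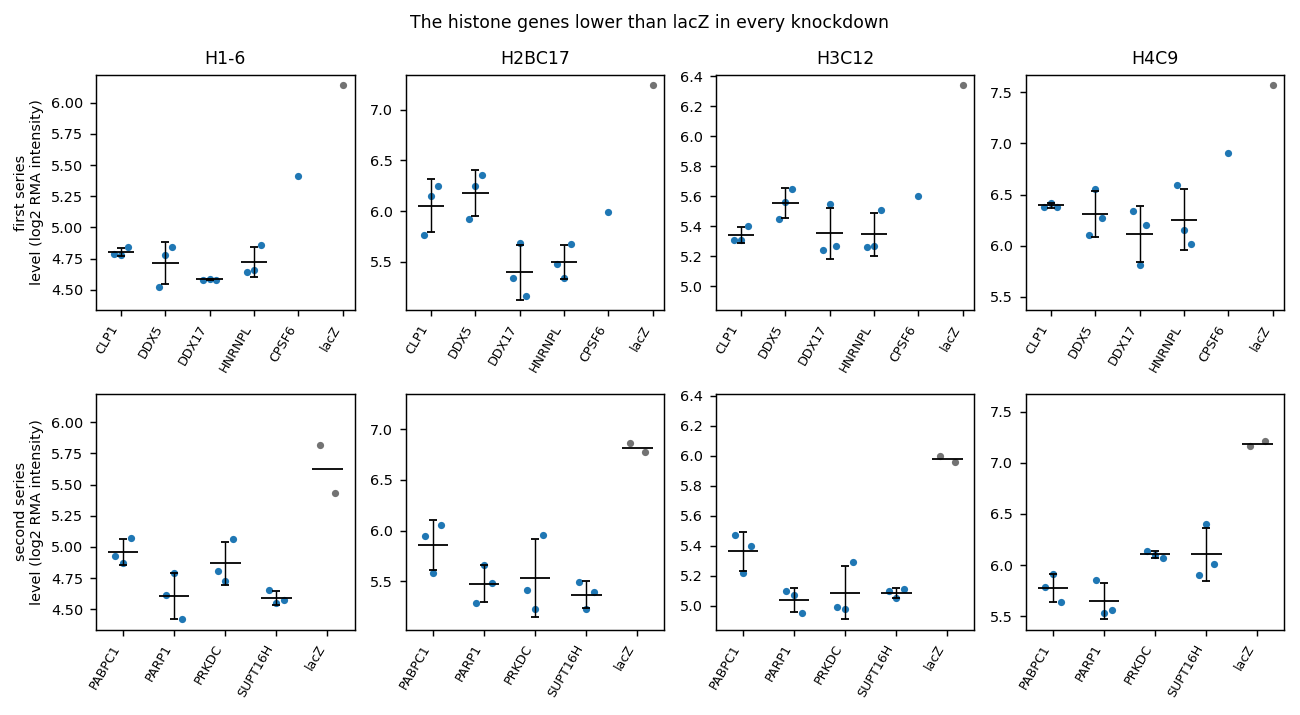
Log2 level in every array of the 4 histone genes called lower than lacZ in all 8 knockdowns, with the first array series above and the second below. Points are arrays, black lines means over 3 hairpins or 2 lacZ arrays, and bars the SD over 3 hairpins; lacZ, in grey, lies above every hairpin array of the 8 knockdowns in all panels, and CPSF6, with 1 array, lies below lacZ.

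H2A members pair with H2B in the outer dimers of the nucleosome, and in this class falls and rises occurred in different genes. H2AC17 and H2AC14 were the H2A members called lower most often, in 6 and 4 comparisons, while H2AC12, H2AC13, H2AC15, H2AC20 and H2AC21 were higher with PABPC1. H2AC17 (chr6:27892699-27893185) had levels of 5.85, 6.08 and 6.14 with CLP1, 6.15, 6.10 and 5.49 with DDX5, 5.54, 5.77 and 5.74 with DDX17 and 5.51, 5.68 and 5.77 with HNRNPL, against 6.58 in lacZ. It had 5.49, 5.80 and 5.84 with PABPC1, 5.12, 5.33 and 5.42 with PARP1, 5.44, 5.25 and 5.35 with PRKDC and 5.22, 5.14 and 5.42 with SUPT16H, against 6.27 and 6.66 in lacZ. Every hairpin array was below the lacZ arrays of its series. The fall was called in 6 comparisons, from -0.75 (SE 0.18, adjusted p = 0.0128) with PABPC1 to -1.20 (SE 0.18, adjusted p = 0.000136) with SUPT16H, and was -0.55 (SE 0.22, adjusted p = 0.374) with CLP1 and -0.66 (SE 0.22, adjusted p = 0.197) with DDX5. The calls of H2AC17 were lost under 3 of 11 alternatives with DDX17, 4 of 11 with HNRNPL and 2 of 13 with PABPC1, with adjusted p of up to 0.131, 0.148 and 0.172.

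H2AC20, the H2A member whose probeset read highest, was at 10.37, 10.31 and 10.47 with CLP1, 10.25, 10.39 and 10.10 with DDX5, 10.17, 10.31 and 9.76 with DDX17 and 10.06, 9.90 and 10.31 with HNRNPL, against 10.08 in lacZ. Hairpin arrays lay on both sides of the control. The second-series levels of H2AC20 were 10.82, 10.72 and 10.87 with PABPC1, 10.32, 10.34 and 10.37 with PARP1, 9.81, 10.15 and 10.47 with PRKDC and 9.97, 10.04 and 10.41 with SUPT16H, against 9.82 and 10.06 in lacZ. Only the PABPC1 difference was called, at 0.86 (SE 0.20, adjusted p = 0.0106), and without lacZ replicate 2 its adjusted p was 0.237. H2AC21 was higher in 3 knockdowns, by 1.27 (SE 0.20, adjusted p = 0.000564) with PABPC1, 0.68 (SE 0.20, adjusted p = 0.017) with PRKDC and 0.68 (SE 0.20, adjusted p = 0.0488) with PARP1. The PARP1 call of H2AC21 was lost under 9 of 14 alternatives, the omission of either lacZ array or of any 1 PARP1 hairpin among them, with adjusted p of up to 0.516. The 2 probesets shared by H2AC18, H2AC19, H2AC20 and H2AC21 were called in 0 knockdowns. They stood at 0.28 with PABPC1, -0.06 with PRKDC and -0.04 with PARP1, so the called rises were seen only in the probesets of H2AC20 and H2AC21 alone. H2AC14 was lower in all 4 second-series knockdowns, from -0.89 (SE 0.26, adjusted p = 0.0392) with PABPC1 to -1.28 (SE 0.26, adjusted p = 0.00325) with SUPT16H. The PABPC1 call of H2AC14 was lost under 6 of 13 alternatives, with either lacZ array left out among them, at adjusted p of up to 0.36. Its first-series differences, -0.72 to -1.03, were not called. Over the 14 H2A members the median difference was 0.42 with PABPC1 and between -0.34 and 0.11 in the other knockdowns.

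The H2B class held more falls than any other class: of its 16 members 4 were lower with CLP1, 2 with DDX5, 5 with DDX17, 4 with HNRNPL, 1 with PABPC1, 7 with PARP1, 5 with PRKDC and 6 with SUPT16H. Its median was -0.62 with CLP1, -0.43 with DDX5, -0.59 with DDX17, -0.62 with HNRNPL, 0.01 with PABPC1, -0.41 with PARP1, -0.21 with PRKDC and -0.26 with SUPT16H, the lowest of the 5 class medians in 6 of the 8 knockdowns, the exceptions being DDX17, where H1 shared it, and PABPC1, where H3 was at -0.06. H2BC17 (chr6:27893425-27893891) had levels of 5.76, 6.15 and 6.25 with CLP1, 5.92, 6.25 and 6.36 with DDX5, 5.34, 5.69 and 5.16 with DDX17 and 5.48, 5.34 and 5.68 with HNRNPL, against 7.24 in lacZ. H2BC17 then had, in the second series, 5.95, 5.58 and 6.05 with PABPC1, 5.29, 5.66 and 5.48 with PARP1, 5.41, 5.23 and 5.96 with PRKDC and 5.49, 5.23 and 5.39 with SUPT16H, against 6.86 and 6.77 in lacZ. The groups did not overlap in any knockdown. The fall was -1.84 (SE 0.26, adjusted p = 0.000171) with DDX17 and -1.74 (SE 0.26, adjusted p = 0.000322) with HNRNPL, and at its smallest -0.95 (SE 0.21, adjusted p = 0.00697) with PABPC1. The calls of H2BC17 with CLP1, DDX5 and PABPC1 did not hold under every alternative, with an adjusted p of up to 0.0992, 0.177 and 0.15. Another probeset, shared by H2BC17 with H2BC5, H2BC12 and H2BC12L, had a mean level of 11.70 and was called in 0 of the 8 knockdowns. Its differences ran from -0.19 with DDX17 to 0.41 with PABPC1. The fall was thus seen in the probeset annotated to H2BC17 alone.

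H2BC12 was the H2B member whose probeset read highest, and it carries a known polyadenylated form. It had levels of 9.29, 9.34 and 9.33 with CLP1, 9.80, 10.29 and 8.76 with DDX5, 9.31, 9.93 and 9.79 with DDX17 and 9.75, 9.58 and 9.65 with HNRNPL, against 10.48 in lacZ. The second-series values were 9.22, 9.95 and 9.12 with PABPC1, 8.98, 9.10 and 9.34 with PARP1, 8.77, 8.90 and 7.84 with PRKDC and 9.09, 9.85 and 8.52 with SUPT16H, against 10.31 and 10.61 in lacZ. All 24 hairpin arrays were below lacZ, and the hairpins of 1 gene spread widely, from 8.76 to 10.29 with DDX5. It was called lower with PRKDC, at -1.96 (SE 0.37, adjusted p = 0.00106), and with PARP1 and SUPT16H, at -1.31 in each. The PARP1 and SUPT16H calls were lost without lacZ replicate 2 or 3, with adjusted p of 0.153 to 0.212, and without several of the hairpins. The probeset that H2BC12 shares with H2BC17 stood at 0.01 with PRKDC, 0.07 with PARP1 and 0.05 with SUPT16H and was not called. H2BC14 fell in every knockdown but PABPC1, with differences of -1.56 (SE 0.24, adjusted p = 0.000466) with DDX17 and -1.49 (SE 0.19, adjusted p = 2.37e-05) with SUPT16H, while the PABPC1 value was -0.63 (SE 0.19, adjusted p = 0.0516). H2BC8 was lower with CLP1, DDX17, HNRNPL, PARP1, PRKDC and SUPT16H, with differences of -0.67 to -1.32, of which the CLP1 call was lost under 4 of 11 alternatives, with adjusted p of up to 0.0813. Higher members of the class were H2BC7, by 1.39 (SE 0.24, adjusted p = 0.00125) with PABPC1, and H2BC4, by 0.92 (SE 0.25, adjusted p = 0.0318) with PABPC1 and 0.67 (SE 0.25, adjusted p = 0.0426) with PRKDC.

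**Figure D3:**
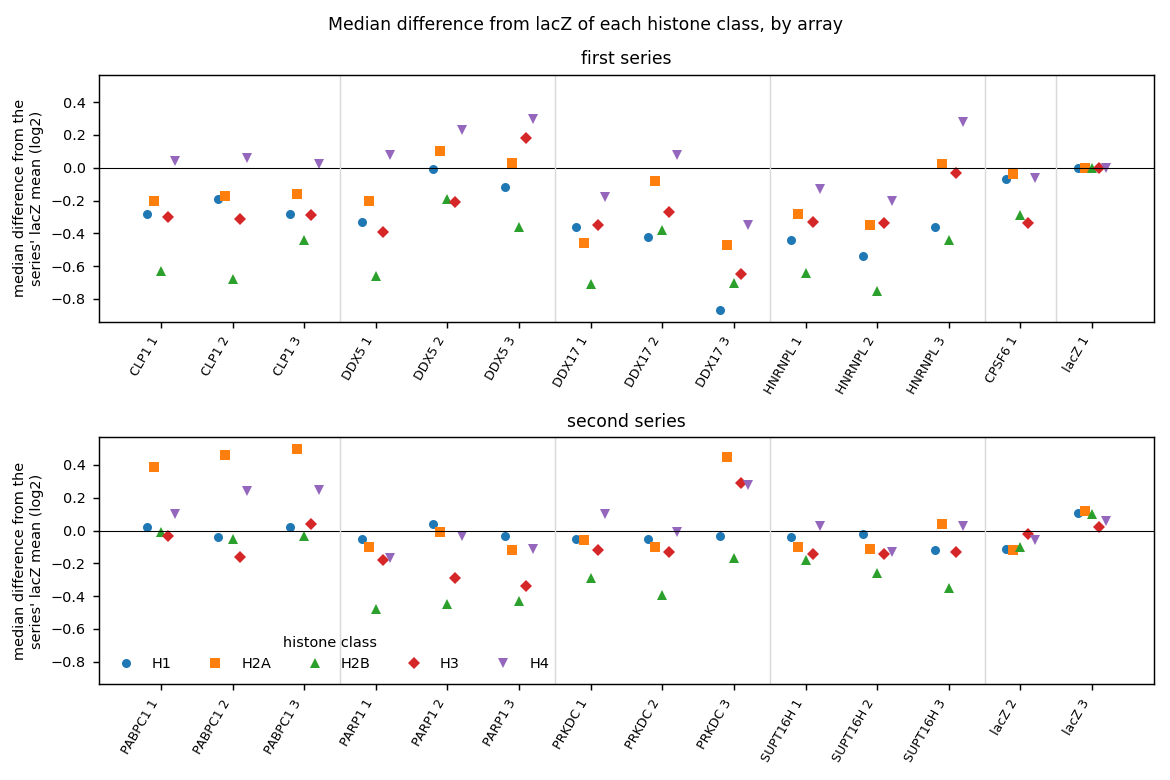
Median difference of each histone class from the mean of the lacZ arrays of its series (log2, vertical axis) in every array (horizontal axis), first series above and second below. Each symbol is the median over the 6, 14, 16, 8 or 12 measurements of a class; H2B (green triangles) is the lowest class in most hairpin arrays, and H2A (squares) is at 0.39 to 0.50 in the PABPC1 arrays.

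H3 and H4 form the tetramer at the core of the nucleosome. In class H3, H3C12 was lower in every knockdown, H3C11 was lower in 3 of the second series, and H3C1 and H3C2 were higher with PABPC1. H3C12 (chr6:27890315-27890826) had levels of 5.31, 5.31 and 5.40 with CLP1, 5.45, 5.56 and 5.65 with DDX5, 5.24, 5.55 and 5.27 with DDX17 and 5.26, 5.27 and 5.51 with HNRNPL, against 6.34 in lacZ. Its levels were 5.47, 5.22 and 5.40 with PABPC1, 5.10, 5.07 and 4.95 with PARP1, 4.99, 4.98 and 5.29 with PRKDC and 5.10, 5.05 and 5.11 with SUPT16H, against 6.00 and 5.96 in lacZ. No hairpin array reached a lacZ array of its series. The fall ran from -0.62 (SE 0.13, adjusted p = 0.00522) with PABPC1 to -0.99 (SE 0.16, adjusted p = 0.00131) with CLP1. With PABPC1 the adjusted p was 0.114 without lacZ replicate 2, and with DDX5 it was 0.145 when the first series was fitted alone.

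H3C2, the H3 member whose probeset read highest, was at 10.14, 9.95 and 10.05 with CLP1, 9.99, 10.44 and 10.37 with DDX5, 9.86, 10.19 and 9.18 with DDX17 and 9.92, 9.69 and 10.51 with HNRNPL, against 9.88 in lacZ, on both sides of the control. In the second series its levels were 10.58, 10.61 and 10.67 with PABPC1, 10.34, 10.14 and 10.04 with PARP1, 10.71, 10.34 and 10.15 with PRKDC and 10.18, 10.32 and 10.02 with SUPT16H, against 9.66 and 9.89 in lacZ. All 12 were above both controls. The rise was 0.85 (SE 0.24, adjusted p = 0.0405) with PABPC1 and 0.63 (SE 0.24, adjusted p = 0.0472) with PRKDC, and both calls were lost without either lacZ array. H3C11 was at 9.86, 9.88 and 9.80 with CLP1, 9.75, 9.91 and 10.35 with DDX5, 8.93, 9.54 and 8.77 with DDX17 and 9.06, 8.93 and 10.03 with HNRNPL, against 9.06 in lacZ. H3C11 in the second series was at 8.11, 8.16 and 8.20 with PABPC1, 7.75, 7.73 and 7.48 with PARP1, 8.09, 7.87 and 6.59 with PRKDC and 7.26, 7.25 and 7.54 with SUPT16H, against 8.77 and 9.38 in lacZ. Of the 12 first-series arrays 8 lay above lacZ, 1 read the same and 3 lay below, and all 12 of the second series lay below. The second-series falls were -1.73 (SE 0.33, adjusted p = 0.00219) with SUPT16H, -1.56 (SE 0.33, adjusted p = 0.0026) with PRKDC and -1.42 (SE 0.33, adjusted p = 0.0111) with PARP1, and the first-series values, up to 0.95 with DDX5, were not called. The PARP1 and SUPT16H calls were lost without lacZ replicate 3, with adjusted p of up to 0.173 and 0.0614. For H3C11 the mean effect in the first series minus that in the second was 1.92 (SE 0.47, adjusted p = 0.159), and over all members 0 of 56 were called for that difference, where 0.0597% of all genes (11) were. The fit for this difference treated the lacZ arrays of the 2 series as independent, although the first-series array and lacZ replicate 2 behaved as 1. Its SE and p-values do not account for that sharing, and the 0 calls do not show that the series were alike. H3C7 was higher with DDX5, by 1.36 (SE 0.32, adjusted p = 0.0426), a call lost under 4 of 12 alternatives (the series fitted alone, quantile normalisation over all arrays, all probesets fitted, and without DDX5 hairpin 3), with adjusted p of up to 0.346.

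Nearly all H4 genes encode the same protein, and in this class H4C9 was lower in all 8 knockdowns while H4C1, H4C2 and, in the probesets counted here, H4C14/H4C15 were higher in 1 or more of the second series. H4C9 (chr6:27139282-27139678) had levels of 6.38, 6.42 and 6.38 with CLP1, 6.10, 6.55 and 6.27 with DDX5, 6.34, 5.81 and 6.20 with DDX17 and 6.59, 6.15 and 6.02 with HNRNPL, against 7.57 in lacZ. Its second-series levels were 5.78, 5.91 and 5.64 with PABPC1, 5.85, 5.53 and 5.56 with PARP1, 6.14, 6.10 and 6.07 with PRKDC and 5.90, 6.40 and 6.01 with SUPT16H, against 7.17 and 7.21 in lacZ. Hairpin and lacZ arrays did not overlap. The fall was greatest with PARP1, at -1.54 (SE 0.18, adjusted p = 1.07e-05), and was -1.09 (SE 0.18, adjusted p = 0.000684) with SUPT16H. When the first series was fitted alone the adjusted p was 0.108 with CLP1 and 0.0887 with DDX5.

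H4C3, the H4 member whose probeset read highest, had levels of 10.76, 10.69 and 10.76 with CLP1, 10.61, 10.89 and 10.81 with DDX5, 10.54, 10.62 and 10.34 with DDX17 and 10.48, 10.40 and 10.78 with HNRNPL, against 10.40 in lacZ. It had 10.60, 10.59 and 10.63 with PABPC1, 10.43, 10.35 and 10.34 with PARP1, 10.45, 10.41 and 10.50 with PRKDC and 10.27, 10.47 and 10.43 with SUPT16H, against 10.17 and 10.29 in lacZ. Most hairpin arrays lay a little above lacZ, and H4C3 was called in 0 of the 8 comparisons, its difference being 0.38 at most, with PABPC1. H4C14/H4C15 was at 11.21, 10.99 and 11.34 with PABPC1, 10.69, 10.60 and 10.16 with PARP1, 11.08, 10.88 and 10.66 with PRKDC and 10.45, 10.82 and 10.83 with SUPT16H, against 9.81 and 10.01 in lacZ. All 12 hairpin arrays were above both controls. The rise was 1.27 (SE 0.23, adjusted p = 0.00136) with PABPC1, 0.96 (SE 0.23, adjusted p = 0.00475) with PRKDC and 0.79 (SE 0.23, adjusted p = 0.0307) with SUPT16H, and all 3 calls were lost without lacZ replicate 2. Other probesets, shared by H4C14 and H4C15, went the opposite way in limma. They stood at -1.54 (adjusted p = 0.0132) with PABPC1, -1.47 (adjusted p = 0.00647) with PRKDC and -0.86 (adjusted p = 0.114) with SUPT16H. The direction for these 2 genes thus depends on the probeset. H4C1 rose by 1.25 (SE 0.28, adjusted p = 0.0089) with PABPC1 and 1.18 (SE 0.28, adjusted p = 0.00489) with PRKDC, and the PRKDC call was lost without lacZ replicate 2, at an adjusted p of 0.0882.

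Each knockdown was also set against the mean of the other 3 of its series, which leaves the lacZ arrays out of the difference. The DDX5 difference was positive for 54 of the 56 members and the DDX17 difference negative for 52, with medians of 0.20 and -0.18. By hairpin the medians were 0.07, 0.30 and 0.31 with DDX5 and -0.21, 0.03 and -0.39 with DDX17, whose second hairpin did not share the fall. In the second series PABPC1 was positive for 51, with a median of 0.30, and PARP1 negative for 52, with a median of -0.18. Their hairpin medians were 0.30, 0.30 and 0.35 with PABPC1 and -0.19, -0.14 and -0.24 with PARP1. The differences of a series are linked, since each knockdown stands in the reference of the others, and shares of signs over all genes were not taken. Few of these differences passed the test: 3 members were higher with PABPC1, where 0.0869% of all genes were called and 0.0217% (4 genes) were higher, and 1 was lower with PARP1, where 0.554% of all genes were called and 0.0543% (10 genes) were lower. In the other 6 comparisons 0 of 56 were called, beside 0.722% of all genes with CLP1, 0.038% with DDX5, 0.874% with DDX17, 0.0977% with HNRNPL, 0.0869% with PRKDC and 0.0109% with SUPT16H. H1-6, H2BC17, H3C12 and H4C9, lower than lacZ throughout, were called in 0 of these 8 comparisons, with differences between -0.51 and 0.53. H2AC12 (chr6:27147106-27147562) had levels of 8.99, 8.74 and 8.89 with PABPC1, against 7.85, 8.20 and 8.07 with PARP1, 7.38, 7.68 and 8.61 with PRKDC and 7.31, 7.36 and 8.00 with SUPT16H, and lacZ read 7.70 and 7.94. H2AC15 had 8.39, 7.54 and 7.96 with PABPC1, against 7.00, 6.83 and 7.09 with PARP1, 7.19, 7.19 and 7.55 with PRKDC and 6.71, 6.66 and 6.95 with SUPT16H, and lacZ read 6.78 and 7.00. H2BC7 had 8.12, 8.69 and 8.38 with PABPC1, against 7.63, 7.22 and 7.58 with PARP1, 7.64, 7.65 and 7.35 with PRKDC and 7.58, 7.69 and 7.17 with SUPT16H, and lacZ read 6.80 and 7.21. The PABPC1 arrays lay above all others of the series for H2AC12 and H2BC7, and for H2AC15 the third PRKDC hairpin, at 7.55, passed the lowest PABPC1 array, at 7.54. PABPC1 minus the mean of the other knockdowns was 1.04 (SE 0.21, adjusted p = 0.0425) for H2AC12, 0.95 (SE 0.15, adjusted p = 0.00664) for H2AC15 and 0.90 (SE 0.18, adjusted p = 0.0425) for H2BC7.

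The count of 3 moved with single arrays: it was 13 without PRKDC hairpin 3, 0 without PABPC1 hairpin 3, and 1 without any one of PABPC1 hairpins 1 and 2, the 3 PARP1 hairpins, PRKDC hairpins 1 and 2 or SUPT16H hairpins 1 and 2. H2BC3 had levels of 3.98, 4.07 and 4.25 with PARP1, against 4.90, 4.48 and 4.49 with PABPC1, 4.24, 4.23 and 4.60 with PRKDC, 4.54, 4.72 and 4.46 with SUPT16H, and lacZ read 4.65 and 4.62. The PARP1 arrays reached up to 4.25, and the first 2 PRKDC arrays, at 4.24 and 4.23, overlapped with them. The difference from the other knockdowns was -0.42 (SE 0.10, adjusted p = 0.0474), and the call was lost under 14 of the 19 alternatives run. With DDX5 hairpin 1 left out, 8 members were called between DDX5 and the other knockdowns of the first series, 1 between CLP1 and the others and 2 between DDX17 and the others, against 0 in each with all arrays. Without SUPT16H hairpin 3, 1 was called with SUPT16H.

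**Figure D4:**
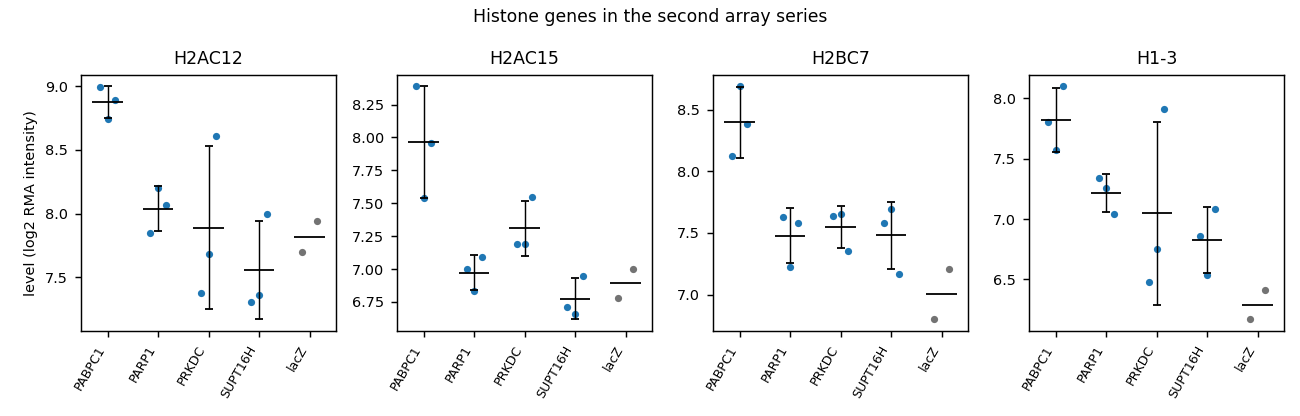
Log2 level of H2AC12, H2AC15, H2BC7 and H1-3 in the arrays of the second series (points), with the mean of each group (line) and the SD over 3 hairpins (bars). The 3 PABPC1 arrays are the highest of the series for H2AC12 and H2BC7, and PRKDC hairpin 3 stands above the other 2 PRKDC hairpins for H2AC12, H2AC15 and H1-3.

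The members lie in a few clusters: 31 of the 56 measurements in the first cluster of chromosome 6, 18 in a second one downstream, 6 on chromosome 1 and 1 on chromosome 12. Falls were denser in the second cluster, where of 18 members 4 were lower with CLP1, 4 with DDX5, 7 with DDX17, 5 with HNRNPL, 5 with PABPC1, 9 with PARP1, 9 with PRKDC and 8 with SUPT16H. In the first cluster, of 31 members, the counts were 3, 1, 3, 3, 1, 4, 5 and 4 in the same order, and on chromosome 1, of 6, they were 0 throughout. H3C12, H2AC17 and H2BC17 are neighbours between 27890315 and 27893891 on chromosome 6, and H2AC14 and H2BC14 share a promoter upstream of them in the same cluster. The chromosome 1 members were all positive with PABPC1, PRKDC and SUPT16H, with medians of 0.59, 0.19 and 0.36. Shared probesets of these members, not counted here, went both ways in those knockdowns. Those of H4C14 and H4C15 stood at -1.54, -1.47 and -0.86, and those of H2AC20 and H2AC21 at 0.28, -0.06 and 0.15. For H2BC21, 1 stood at -0.38, -0.93 and -0.69 and another at 0.74, 0.43 and 0.40. The chromosome 1 values thus depend on the probesets taken. The difference between the clusters was described and not tested.

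Among the members with a promoter entry, H2A and H2B genes that start in opposite directions within 400 bases of each other formed 9 pairs, with start sites 215 to 248 bases apart. H2AC12, which had no entry, lies 248 bases from the 5′ end of H2BC12, a gene of the minus strand. Without an entry H2AC12 could not be placed by this rule and is not among the 9 pairs. Its levels had an r of -0.17 in the first series and -0.03 in the second with those of H2BC12. In the pairs H2AC14/H2BC14 and H2AC17/H2BC17 both genes were below lacZ in all 8 knockdowns, by 0.72 to 1.28 for H2AC14, 0.63 to 1.56 for H2BC14, 0.55 to 1.20 for H2AC17 and 0.95 to 1.84 for H2BC17 on the log2 scale. In H2AC8/H2BC8 the H2B gene was the lower of the pair throughout, at -1.32 for H2BC8 beside -0.69 for H2AC8 with DDX17 and -0.35 beside 0.31 with PABPC1. In H2AC20/H2BC21 the genes parted: H2BC21 was at -1.02 and H2AC20 at 0.00 with DDX17, and with SUPT16H H2AC20 was at 0.20 while the 3 hairpins of H2BC21 read 8.71, 9.22 and 7.01, against 7.18 and 7.46 in lacZ, so that the third lay below both controls (H2BC21 was not called there, adjusted p = 0.0923). Over the 12 hairpin arrays of the 4 knockdowns of a series, the levels of paired genes had a median Pearson r of 0.75 in the first series and 0.59 in the second, beside 0.56 and 0.46 over the other 199 combinations of H2A and H2B members with an entry. All points of such a correlation share the arrays and their normalisation. Over all 1540 combinations of members the median r was 0.60 in the first series and 0.38 in the second.

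**Figure D5:**
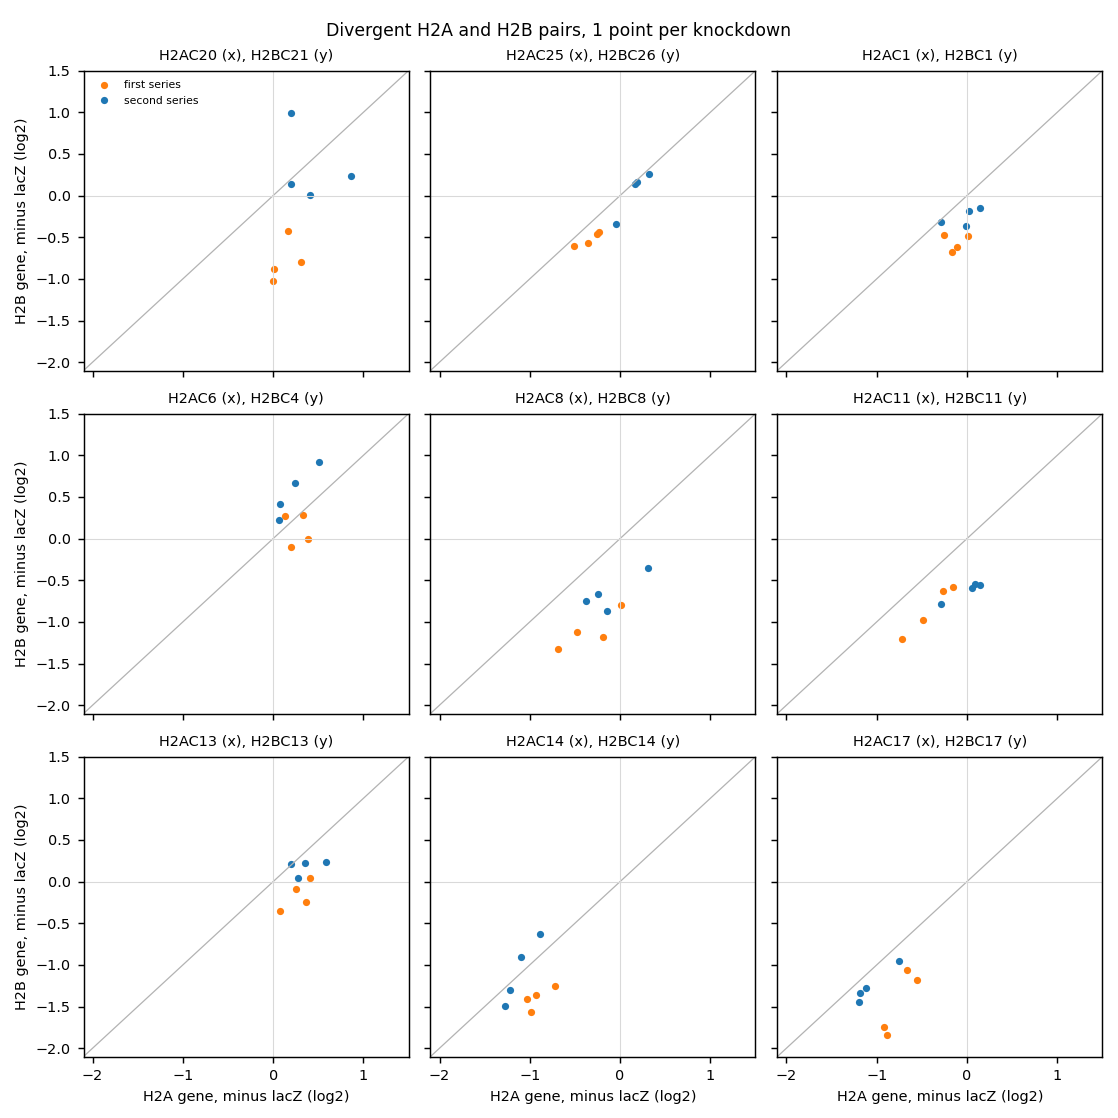
Difference from lacZ of the H2A gene (horizontal axis) and the H2B gene (vertical axis) of each of the 9 divergent pairs, both in log2, with 1 point per knockdown in orange for the first series and blue for the second. Points of H2AC14/H2BC14 and H2AC17/H2BC17 lie in the lower left of their panels, and in H2AC8/H2BC8 every point lies below the line of equal differences.

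Histone promoters carry class-specific elements, and the windows around start sites in RefSeq's annotation of GRCh38.p14, 300 bases each, were searched for 4 of them in the 52 members that had an entry. The octamer ATTTGCAT, searched on both strands and known as a site of the factor OCT1 in H2B promoters, was present in 13 of 16 H2B and 10 of 13 H2A windows and in 0 of the H1, H3 and H4 windows, against 1.77% of all 35116 windows in the table. In 7 of the 9 divergent pairs both genes share 1 octamer. The element AAACACA of H1 promoters, on both strands, was present in all 6 H1 windows and 1 further member, H2AC20, against 5.64% of all windows. CCAAT, on both strands, was present in 44 of the 52 members, the 8 without it all being H4 windows, against 34.6% of all windows, and TATAAA, on the gene's strand, in 30 against 7.33%. CCAAT and the octamer can share bases where they adjoin. The windows below show the octamer in H2B members that fell in most knockdowns (H2BC17, H2BC14 and H2BC8) and in those that rose with PABPC1 (H2BC7 and H2BC4), each of 30 bases read 5′ to 3′ on the strand of the H2B gene, with the motif in capitals.
H2BC17: gcttcctcttaATGCAAATgagctttctga
H2BC14: ttctactcctaATTTGCATaataacattta
H2BC8: ttgaattctttATTTGCATgaaaggcctat
H2BC7: agaatcacctaATTTGCATaccacagggca
H2BC4: tttcatacctcATTTGCATagctctgccca
They lie at chr6:27893265-27893294 (plus strand), chr6:27814963-27814992 (plus), chr6:26216718-26216747 (minus), chr6:26199394-26199423 (plus) and chr6:26124031-26124060 (minus). In H2BC17 the match is in the opposite direction to that in the other 4. Over the 23 H2A and H2B members with it the median difference with DDX17 was -0.62 and with PABPC1 0.14, and over the 6 without it -0.35 and 0.29.

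For H1, the windows show the element in H1-6, lower in every knockdown, in H1-3, higher with PABPC1 and PRKDC, and in H1-4, called in none, with the motif in capitals.
H1-6: ccgggtaaaacAAACACAaatactcctcct
H1-3: taaggggcaacAAACACAgcagcgcggtag
H1-4: tgaggtgtaacAAACACAactcgggatccg
Their positions are chr6:26108222-26108251 (minus strand), chr6:26235088-26235117 (minus) and chr6:26156201-26156230 (plus). A match of letters is a description and was not tied to any of the differences.

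Some members are known to make a polyadenylated mRNA as well, and the 7 on that list, H1-2, H2AC6, H2BC4, H2BC5, H2BC11, H2BC12 and H2BC21, had medians of -0.63 with CLP1, -0.41 with DDX5, -0.76 with DDX17 and -0.60 with HNRNPL, beside -0.19, -0.08, -0.35 and -0.26 over the other 49. In the second series the 7 had 0.11 with PABPC1, 0.00 with PARP1, -0.17 with PRKDC and -0.02 with SUPT16H, beside 0.18, -0.21, 0.09 and -0.12. Most of the 7 are H2B genes, and the whole H2B class had medians of -0.62, -0.43, -0.59 and -0.62 in the first series. In the second series the H2B class had 0.01, -0.41, -0.21 and -0.26, in the same order of knockdowns. The list and the class were not told apart by a test. Of the 7, 0 were called with CLP1, DDX5 or HNRNPL and 1 with DDX17, namely H2BC11 at -1.20 (SE 0.28, adjusted p = 0.018). Of all genes 0.956%, 0.842% and 1.84% were called with CLP1, DDX5 and HNRNPL, and 1.56% were lower with DDX17. In the second series 1 was higher with PABPC1, beside 1.73% of all genes. With PARP1 and SUPT16H 2 were lower in each, beside 2.98% and 5.76%. With PRKDC 1 was higher and 1 lower, beside 19.6% and 16.1% of all genes. The probesets do not separate the polyadenylated from the stem-loop form of a gene. Of the members known from the testis beside H1-6, H2AC1 was called in 0 comparisons and H2BC1 in 2, at -0.62 (SE 0.17, adjusted p = 0.0426) with DDX17 and -0.68 (SE 0.17, adjusted p = 0.0333) with HNRNPL.

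The single CPSF6 array gives values without a test. Of the 56 measurements 0 were over 1 log2 unit above the lacZ array of the series and 2 below, H2BC14 at -1.38 and H2BC17 at -1.25, where 1.29% of all genes were past that limit, 0.999% above and 0.293% below. H1-6 stood at 5.41 with CPSF6 against 6.14 in lacZ, and H4C9 at 6.91 against 7.57, both above the range of the 12 hairpin arrays of the other knockdowns, 4.52 to 4.86 for H1-6 and 5.81 to 6.59 for H4C9.

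Of the proteins that act on these genes and mRNAs, the transcription factors CASP8AP2 and HINFP and the processing factor ZNF473 were lower in several knockdowns, while SLBP was called in none. Of 8 measured genes of the transcription list, 0 were called with CLP1 and DDX5, and 1 was lower with DDX17 and with HNRNPL. With PABPC1 and with PARP1 2 were lower, with SUPT16H 3, and with PRKDC 4 were lower and 1 higher. Of all genes 1.56% were lower with DDX17, 1.13% with HNRNPL, 4.02% with PABPC1, 2.98% with PARP1 and 5.76% with SUPT16H. With PRKDC 16.1% of all genes were lower and 19.6% higher. CASP8AP2, whose product FLASH gathers at histone locus bodies and also binds the stem-loop processing machinery, was lower in 6 knockdowns, at -0.86 (SE 0.24, adjusted p = 0.0497) with DDX17 to -1.35 (SE 0.19, adjusted p = 7.95e-05) with PRKDC. HINFP, which activates H4 genes, was lower in the 4 second-series knockdowns, at -0.75 (adjusted p = 0.00643) with PRKDC to -0.94 (adjusted p = 0.00305) with SUPT16H. NPAT, the coactivator of histone genes at the start of S phase, was lower with PRKDC, at -1.46 (SE 0.35, adjusted p = 0.00561), and its values in the other knockdowns, -0.26 to -0.89, were not called. The 8 values of SLBP were -0.03 to -0.32.

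Of 17 measured genes of stem-loop processing, ZNF473, a zinc finger protein of the U7 snRNP complex, was lower with HNRNPL and in all 4 second-series knockdowns, at -1.11 (SE 0.25, adjusted p = 0.0087) with SUPT16H to -1.21 (SE 0.32, adjusted p = 0.0481) with HNRNPL. With PRKDC 3 further genes of this list were lower, among them FIP1L1 at -0.84 (adjusted p = 0.00746), and with DDX17 SNRPE was higher. The lower genes were 1 of 17 with HNRNPL, PABPC1, PARP1 and SUPT16H, beside 1.13%, 4.02%, 2.98% and 5.76% of all genes. With PRKDC they were 4 of 17, beside 16.1%, and the 1 higher with DDX17 stood beside 1.22%. A count of 1 in 17 does not set the list apart. Of 10 genes of histone mRNA decay 5 were lower with PRKDC and 1 with PABPC1, TUT4 in both, and 0 in the other 6 knockdowns, beside 16.1% of all genes lower with PRKDC and 4.02% lower with PABPC1. Of 9 replication-independent histone genes 3 were higher with PRKDC (H2AX, H1-10 and H2AJ, at 0.80, 0.81 and 0.46) and 1 lower (H2AZ1, at -0.78, adjusted p = 0.0481), where 35.7% of all genes were called. H2AX was also higher with SUPT16H, at 0.89 (adjusted p = 0.0123), and H2AZ2 lower with PABPC1, at -0.68 (adjusted p = 0.0308). Of all genes 3.77% were higher with SUPT16H and 4.02% lower with PABPC1.

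Of 21 genes of S phase and DNA replication, TYMS was higher with CLP1, DDX17 and HNRNPL, by 1.20 to 1.29, MCM2 higher with HNRNPL and in all 4 second-series knockdowns, by 0.64 to 0.88, and CDC6 lower with PARP1 and PRKDC, at -0.93 and -0.92. Of the 21, 1 was higher with CLP1, DDX17, PABPC1 and PARP1 each, and 2 with HNRNPL and SUPT16H each. Of all genes 0.337%, 1.22%, 1.73%, 2.46%, 0.7% and 3.77% were higher in the same order. With PARP1 1 was lower, beside 2.98% of all genes, and with DDX5 0 were called. With PRKDC 3 were higher and 3 lower, 6 of 21 beside 35.7% of all genes. The median of this list was between -0.24 and 0.15 over the 8 knockdowns. Its median by array reached -0.49 in DDX5 hairpin 3, -0.21 in HNRNPL hairpin 3 and -0.41 in PRKDC hairpin 1, and on the other side 0.37 in DDX5 hairpin 1 and 0.24 in DDX17 hairpin 3 and HNRNPL hairpins 1 and 2. Small nuclear and nucleolar RNAs, 207 genes that are short and lack a poly(A) tail, also differed between arrays, with medians against lacZ of 0.93 in DDX5 hairpin 3, 0.88 in DDX17 hairpin 2 and 0.96 in HNRNPL hairpin 3, beside 0.02 to 0.51 in the other hairpin arrays of the first series. In the second series their medians were 0.49, 0.29 and 0.19 with PABPC1, 0.29, 0.18 and -0.09 with PARP1, 0.58, 0.64 and 0.30 with PRKDC and 0.54, 0.59 and 0.15 with SUPT16H. Of the 207, 10 were called higher with PABPC1, 2 with PARP1, 69 with PRKDC and 24 with SUPT16H. Of all genes 1.73%, 2.46%, 19.6% and 3.77% were higher in the same order. In the first-series knockdowns 0 to 3 of the 207 were called higher, beside 0.174% to 1.22% of all genes. In the 3 first-series arrays named above the median of all histone members was -0.02, -0.20 and -0.10, the highest of the 3 hairpins in each knockdown, and it was lowest in DDX17 hairpin 3, at -0.58, where 53 of the members were below lacZ. Their part in the histone values was not tested. Between the 2 lacZ arrays of the second series, replicate 3 minus 2 had a median of 0.21 over the members and -0.02 over all genes.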

How the data were processed

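RNA of HEK293 cells was measured, and 28 arrays were deposited in 2 series of 14. The authors background-corrected and quantile-normalised the probe intensities by RMA and summarised them per probeset with aroma.affymetrix (its version is not given in the sources used here). The paper does not say whether the 2 series were normalised apart, which is assumed here. The deposited values are RMA intensities on the linear scale, with array medians of 61.5 to 74.0 (first series) and 54.5 to 58.3 (second series). Levels here are log2 of these intensities. Of 33252 probesets, 19460 carried 1 gene symbol in the platform's annotation, 1754 several and 12038 none, and the probeset with the highest mean stood for each of 18417 genes.

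A limma model (version 3.58.1 in R 4.3.3) with 1 mean per gene targeted and array series was fitted to all arrays with an intensity trend, with 17 residual and 8 prior degrees of freedom, and p-values were adjusted by Benjamini-Hochberg over all genes with a threshold of 0.05. Each knockdown was compared with lacZ and with the mean of the other 3 knockdowns of its series, and the mean effects of both series with each other. The lacZ arrays that behaved as 1 array stand in 1 series each, and the fit treats them as independent, which bears on the comparison of the series. On simulated data 61% of genes shifted by 1 log2 unit were recovered for CLP1 against lacZ and 79% for PABPC1 against lacZ, with 6 false calls in each, and the number of arrays limits the precision.

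Members and gene lists were chosen with earlier results of these data known. Named members were the one called most often and the one with the highest mean level in each class, with values in all arrays, and the 3 largest called rises and falls of each comparison. H3C1, H2AC13, H2BC1, H2BC4, H2BC11 and others named for position, promoter or list were added after their values were seen. Promoter windows came from RefSeq on GRCh38.p14, and H4C3, H3C12, H4C1, H3C11 and H2AC12 had no entry. Hairpin numbers name different sequences in different genes and were not used to pair arrays in the main fit. Alternatives were fitting each series alone, quantile normalisation over all arrays, centring, a pseudocount of 16, leaving out genes under a mean level of 6, no intensity trend, the hairpin number as a block, both lacZ arrays behind every knockdown, leaving out each array and, chosen after seeing the data, fitting all probesets.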

Additional observations from a re-analysis of the deposited data

Results flagged for a closer look

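In the comparison of a knockdown with the other 3 of its series, 4 histone genes differed past the threshold, which is a difference between knockdowns under the same control. With PABPC1, H2AC12 was 1.04 above the mean of PARP1, PRKDC and SUPT16H, H2AC15 0.95 and H2BC7 0.90 (log2, adjusted p = 0.0425, 0.00664 and 0.0425 in limma), with all 3 hairpins in the same direction. With PARP1, H2BC3 was at -0.42 against the mean of the other knockdowns (adjusted p = 0.0474). The H2AC12 call was lost under 10 of 20 alternatives, the H2BC7 call under 9 of 20, the H2AC15 call without PABPC1 hairpin 1 or 3, and the H2BC3 call under 14 of 19.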

How the results depend on the processing

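With each series fitted alone, 3 members were called with CLP1 and 2 with DDX5 against lacZ, and 6 with PABPC1, 5 with PARP1 and 1 with PRKDC against the other knockdowns. Leaving out genes under a mean level of 6, which keeps 36 members, gave 1 with CLP1, 2 with DDX5, 3 with DDX17, 1 with HNRNPL, 5 with PARP1, 12 with PRKDC and 5 with SUPT16H against lacZ and 0 with PARP1 against the others. Both lacZ arrays behind every knockdown gave 13 with CLP1, 10 with DDX5, 17 with DDX17 and 15 with HNRNPL. Against the other knockdowns, quantile normalisation over all arrays gave 8 with PABPC1 and 0 with PARP1, a pseudocount of 16 gave 0 with PARP1, and no intensity trend 1 with DDX17 and 0 with PARP1. Same-numbered hairpins of different genes correlated over 0.1 in 15 of 36 pairings, from -0.575 to 0.833. The highest values were those of DDX5 and HNRNPL, at 0.833 for hairpin 3 and 0.631 for hairpin 1. What such arrays share beyond the number was not tested. The replicate block gave 1 with CLP1 and 0 with PARP1 against the others. Leaving out 1 array at a time, the counts against lacZ were 5 to 5 with CLP1, 5 to 6 with DDX5, 7 to 10 with DDX17, 5 to 8 with HNRNPL, 3 to 14 with PABPC1, 6 to 10 with PARP1, 7 to 19 with PRKDC and 6 to 10 with SUPT16H. Against the others they were 0 to 1 with CLP1, PARP1 and SUPT16H, 0 to 8 with DDX5, 0 to 2 with DDX17, 0 to 13 with PABPC1, and 0 to 0 with HNRNPL and PRKDC, and 0 to 0 for the difference between the series. Leaving out genes under a mean of 6 turned the median of the members to 0.07 with DDX5, 0.02 with PARP1 and 0.07 with SUPT16H, and the PRKDC median was -0.03 without lacZ replicate 2 and -0.05 without PRKDC hairpin 3. Of 67 calls of named genes, 33 held under every alternative run and 0 changed sign. The causes were not tested.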

Other observations

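Probesets shared by several histone genes, left out of the counts above, gave values that differed between sets of relatives. The 3 genes H3C13, H3C14 and H3C15 were read by 4 probesets, all higher with PABPC1 (1.02 to 1.23), PRKDC (0.92 to 1.09) and SUPT16H (0.75 to 0.95) and none called in the first series. A probeset shared by H3C4 and H2AC7 was higher in all 4 second-series knockdowns, by 1.71 (SE 0.21, adjusted p = 7.74e-05) with PABPC1 and 0.97 (SE 0.21, adjusted p = 0.0083) with SUPT16H. Of the probesets for H2BC18 and the pseudogene H2BP1, 1 was lower in 7 knockdowns, at -1.42 (SE 0.17, adjusted p = 3.13e-05) with PRKDC, and another was higher with PABPC1, at 0.82 (SE 0.19, adjusted p = 0.0191). The probesets shared by H4C14 and H4C15 were lower in 4 knockdowns, at -1.54 (SE 0.34, adjusted p = 0.0132) with PABPC1, where the probeset annotated to each gene alone was higher, at 1.27. A probeset shared by H2BC15 and H2AC15 was lower in 7, at -0.60 (SE 0.15, adjusted p = 0.0229) with PABPC1, where H2AC15's own was higher, at 1.07. The probeset shared by H2BC5, H2BC12, H2BC12L and H2BC17 and the 2 shared by H2AC18, H2AC19, H2AC20 and H2AC21 were called in 0 knockdowns. Which transcripts each probeset reads was not tested.

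A probeset shared by H3C11 and H3C6 was lower with PARP1, PRKDC and SUPT16H, at -0.96, -0.98 and -1.11 (adjusted p = 0.0176, 0.00585 and 0.00498 in limma), the knockdowns in which H3C11's own probeset was lower. The 2 probesets shared by H4C11 and H4C12 stood at 1.05 and 1.29 with CLP1, with adjusted p of 0.0874 and 0.0921, and between -0.42 and -0.10 in the second series.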
